A study of Drosophila melanogaster with 2 samples.

Results

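The 10 genes described here encode subunits and regulators of cohesin and condensin: SMC1, SMC3, vtd, Nipped-B, pds5 and wapl for cohesin, and SMC2, Cap-G, Cap-H2 and Cap-D3 for condensin. They were listed by name with earlier results of these data known, so their counts are not those of a blind choice. They are 10 of the 13968 protein-coding genes annotated on the main chromosome arms. Their promoters were examined for binding of CG8478, measured by chromatin immunoprecipitation with sequencing (ChIP-seq) in whole Drosophila melanogaster embryos aged 0 to 24 h. The embryos came from transgenic flies that express CG8478 fused to eGFP, and the pull-down used an antibody against GFP. There were 2 biological replicates of 1 group and no second genotype, stage or treatment, so each value is a description of this group and no test between groups was possible. The strain, CG8478-GFP, is labelled as an insertion targeting CG8478. The sex of the embryos was not recorded, and the control experiment named in the labels was not analysed here. Each library pools all cell types of the embryo, so a peak that is weak in every cell and a peak that is strong in few cells cannot be told apart.

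Cohesin and condensin are ring-shaped complexes built on pairs of SMC (structural maintenance of chromosomes) ATPases that are closed by a kleisin subunit. Cohesin holds sister chromatids together until anaphase and shapes chromatin loops, and condensin compacts chromosomes for division. In flies, condensin II also acts outside mitosis, where its kleisin Cap-H2 opposes the pairing of homologous chromosomes. Many promoters of broadly used fly genes carry the DNA replication-related element (DRE), whose 8-base core TATCGATA is bound by the factor Dref, and the shorter CGATA inside it is bound by the boundary protein BEAF-32.

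Promoter stretches of 6 of the genes are shown first, since the matches in them are compared with the binding values later. Each runs 5′ to 3′ in the direction of the named gene, in build dm6 with bases from the RefSeq Release 6 genome, and lies around the peak summit or, for vtd and Cap-D3, which had no peak, around the start site. Capitals mark each CGATA on either strand, extended where it is part of TATCGAT or of the whole core. At most 30 bases after the gene's own start site are included. Annotated exons cover 92 of the bases at Cap-H2 and all 125 at Cap-D3, so exons of other genes are included there.
SMC1 (chr3R:24058143-24058316, plus strand): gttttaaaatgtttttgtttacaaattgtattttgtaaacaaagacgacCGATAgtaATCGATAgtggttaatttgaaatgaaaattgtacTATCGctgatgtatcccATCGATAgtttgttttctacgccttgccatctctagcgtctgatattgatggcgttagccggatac
SMC3 (chrX:16593416-16593616, minus strand): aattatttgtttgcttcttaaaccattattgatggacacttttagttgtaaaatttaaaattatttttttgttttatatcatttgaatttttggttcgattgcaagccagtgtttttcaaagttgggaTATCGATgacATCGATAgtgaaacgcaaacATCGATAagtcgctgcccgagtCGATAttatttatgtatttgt
wapl (chrX:2158954-2159126, minus strand): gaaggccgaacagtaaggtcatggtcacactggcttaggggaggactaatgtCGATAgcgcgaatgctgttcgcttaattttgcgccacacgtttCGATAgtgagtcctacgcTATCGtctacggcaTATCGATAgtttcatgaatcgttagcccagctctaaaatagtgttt
Cap-H2 (chr3R:10761039-10761239, plus strand): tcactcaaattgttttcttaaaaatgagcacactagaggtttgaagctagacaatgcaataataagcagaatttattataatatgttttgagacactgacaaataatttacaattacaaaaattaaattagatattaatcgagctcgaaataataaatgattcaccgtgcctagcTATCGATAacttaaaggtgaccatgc
vtd (chr3L:27136425-27136554, plus strand): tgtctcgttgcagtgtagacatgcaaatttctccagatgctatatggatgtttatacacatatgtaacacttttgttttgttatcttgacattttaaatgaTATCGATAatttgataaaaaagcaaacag
Cap-D3 (chr2L:5525810-5525934, plus strand): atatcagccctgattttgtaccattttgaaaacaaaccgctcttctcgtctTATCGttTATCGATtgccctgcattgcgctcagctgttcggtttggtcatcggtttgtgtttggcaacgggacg
The SMC1, SMC3 and wapl stretches carry several separate DRE-type matches near the start site, whereas Cap-H2 and vtd each have a single whole core. Cap-D3 has a TATCGAT and a separate CGATA.

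Of the 10 genes, 6 had a promoter peak, meaning that a summit in the conservative peak list, made from both replicates, lay no more than 500 bp from an annotated start of the gene. Among all protein-coding genes 22.6% had one. Cohesin genes had peaks at 4 of 6 (SMC1, SMC3, pds5 and wapl, but not vtd or Nipped-B) and condensin genes at 2 of 4 (Cap-H2 and Cap-G, but not SMC2 or Cap-D3). The signal is the authors' value per peak and has no stated scale, so it ranks peaks within a list only. The 6 peaks ran from signal rank 9 to rank 1945 among 2577 promoter peaks, and their median percentile was 94.6. Each gene counts as having a peak also where the peak lies between it and a neighbour. The median includes pds5 and Cap-H2, whose summits are nearer to a neighbour's start site.

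**Figure D1:**
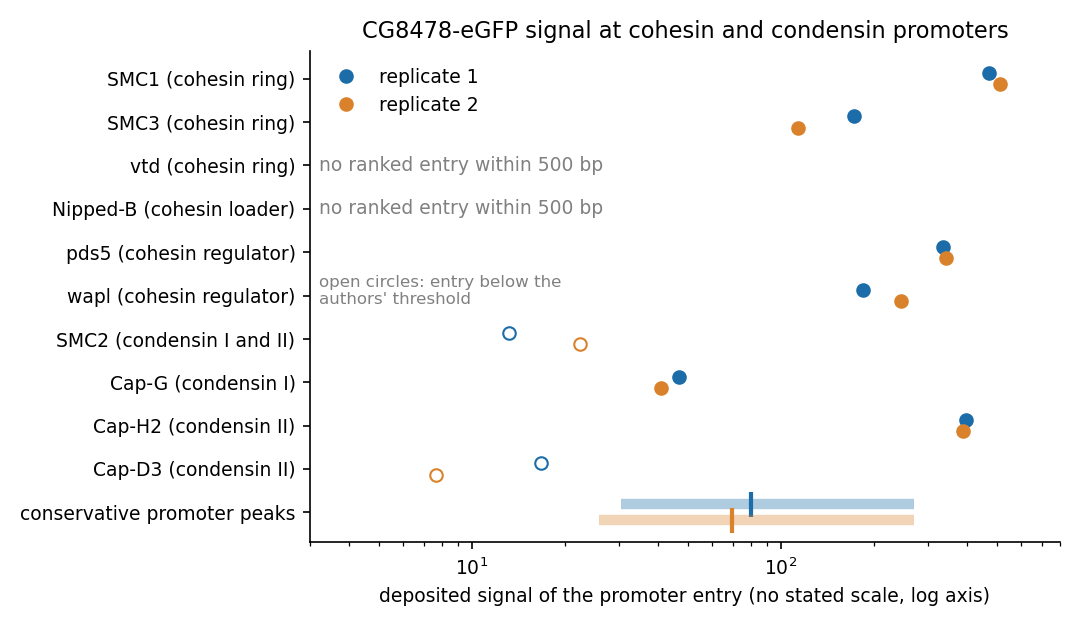
Deposited signal in replicate 1 and replicate 2 of each gene's promoter entry with the lowest irreproducible discovery rate, on a log axis. Bars give the 5th to 95th percentile and ticks the median of all conservative promoter peaks. The second Cap-D3 entry, with 30.6 in replicate 1 and 7.88 in replicate 2, is not drawn. SMC1, Cap-H2 and pds5 lie above both bars in both replicates, SMC2 and Cap-D3 (open circles) lie below the authors' threshold, and vtd and Nipped-B have no entry.

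SMC1, an ATPase of the cohesin ring, had the highest peak of the 10 genes. The peak spans 24058066 to 24058408 on 3R, with a signal of 983 (percentile 99.7). Its summit lies in intergenic sequence 44 bp upstream of the only SMC1 start site, and no other gene starts within 500 bp. The signal was 473 in replicate 1 and 511 in replicate 2, a log2 ratio of replicate 1 to replicate 2 of -0.11. Over all 2577 conservative promoter peaks that log2 ratio had a median of 0.17 and a standard deviation (SD) of 0.56, so the SMC1 ratio was within 1 SD of that median. Within replicate 1 the 2 inputs of its own peak comparison had 218 and 257, and within replicate 2 they had 274 and 233. In each replicate's own list SMC1 was near the top, at rank 13 of 2303 promoter peaks in replicate 1 and rank 11 of 2040 in replicate 2.

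SMC3, the partner ATPase in the ring, had a lower peak on X, from 16593379 to 16593639, with a signal of 285 (percentile 79.8). Its summit lies 77 bp upstream of the SMC3 start site and 161 bp upstream of that of Ubc7, a ubiquitin-conjugating enzyme gene on the opposite strand. The replicates had 172 in replicate 1 and 113 in replicate 2 (log2 ratio 0.60), a ratio within 1 SD of the median of promoter peaks. The summit in replicate 1's own list was 161 bp upstream and that in replicate 2's own list 78 bp upstream. Inside replicate 1 the inputs were also unequal, 67.1 and 103, against 56.3 and 57.9 inside replicate 2. SMC3 stood at percentile 82.4 in replicate 1's list and 64.3 in replicate 2's list, the widest gap among the 5 genes with a peak in both. In the larger optimal list, also from both replicates, SMC3 had a second peak with its summit 279 bp upstream and a signal of 133. The same interval had only 4.02 in replicate 1 and 11.0 in replicate 2 in the comparison between replicates, with an IDR of 0.903.

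vtd, the fly Rad21 and kleisin of mitotic cohesin, had no peak, and no entry of the ranked list lay within 500 bp of its start site. The ranked list holds every candidate of the replicate comparison with its irreproducible discovery rate (IDR), most of them far below the threshold. The nearest entry was 19922 bp away, with an IDR of 0.903 and signals of 11.0 in replicate 1 and 4.95 in replicate 2. Among all protein-coding genes 24.5% had no ranked entry near a start site. vtd lies in pericentromeric heterochromatin of 3L. Within 100 kb of its start site there were 43 ranked entries, a count at percentile 2.26 of all protein-coding genes, whose median was 172. In the same stretch there was 1 conservative peak, against a median of 5, and there were 2 protein-coding genes, against a median of 29. How uniquely reads map there, and its part in the missing entry, was not tested.

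Nipped-B, which with Mau2 loads cohesin onto chromosomes, had no promoter peak either, and no ranked entry within 500 bp. Its start site is in a similarly sparse stretch of 2R, with 48 ranked entries (percentile 2.42), 2 conservative peaks and 5 protein-coding genes within 100 kb. The nearest conservative peak (4730198 to 4730601, signal 102) had its summit 1383 bp upstream of Nipped-B and 81 bp from a start site of the non-coding gene lncRNA:CR45471. Its signals were 76.0 in replicate 1 and 29.4 in replicate 2. A window of 1000 bp did not add Nipped-B to the genes with a peak.

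Both regulators of cohesin residence had high peaks. pds5, which binds the ring and helps set how long it stays on DNA, had a peak at 12027662 to 12028000 on 2R with a signal of 685 (percentile 97.7). Its replicates were close to equal, with 336 in replicate 1 and 343 in replicate 2 (log2 ratio -0.03). The pds5 summit lies between 2 divergent genes, 161 bp upstream of pds5 and 117 bp upstream of Mppe, a metallophosphoesterase gene. Given to the nearest start site, this peak belongs to Mppe. wapl, which releases cohesin from chromosomes, had a peak at 2158888 to 2159167 on X with a signal of 440.2 (percentile 91.5). Its signal was 185 in replicate 1 and 245 in replicate 2 (log2 ratio -0.41), slightly more than 1 SD below the median ratio of promoter peaks. The wapl summit is 43 bp upstream of the more upstream of its 2 start sites, and no other gene starts within 500 bp. At the internal start site of wapl there was only a ranked entry far below the threshold, with 4.42 in replicate 1, 7.84 in replicate 2 and an IDR of 0.903.

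Among the condensin genes Cap-H2 stood apart. Cap-H2, the kleisin of condensin II, had a peak at 10760921 to 10761323 on 3R with a signal of 795 (percentile 98.8), the second highest of the 10 genes. The signal was 398 in replicate 1 and 388 in replicate 2 (log2 ratio 0.04). Inside replicate 1 the inputs had 182 and 207, and inside replicate 2 they had 171 and 211. The summit lies 171 bp upstream of Cap-H2 and 107 bp upstream of MED7, a subunit of the Mediator coactivator, and the peak goes to MED7 when given to the nearest start site. Cap-D3, the other subunit specific to condensin II among the 10 genes, had no peak. Its ranked entries had IDRs of 0.757 and 0.808, whereas no conservative promoter peak had a −log10 IDR below 2.00. The first had signals of 16.8 in replicate 1 and 7.65 in replicate 2, and the second 30.6 in replicate 1 and 7.88 in replicate 2. The nearest conservative peak lay 1661 bp upstream, with a signal of 149, at the start of the neighbouring gene Elp4, a subunit of the Elongator complex.

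Cap-G, a HEAT-repeat subunit of condensin I, had the weakest of the 6 peaks, at 13132859 to 13133262 on 2R with a signal of 81.6 (percentile 24.6). Its summit is 81 bp upstream of the start site and no other gene shares it. Its signals were 47.0 in replicate 1 and 40.9 in replicate 2 (log2 ratio 0.20), below the medians of 80.3 and 69.3 at promoter peaks in those replicates. The peak was absent from replicate 2's own list, where the 2 inputs had 26.8 and 14.3 and the entry had an IDR of 0.0192. In replicate 1 the entry had an IDR of 0.00446. SMC2, the ATPase shared by both condensins, had no peak. Its entry 34 bp upstream of the start site had 13.3 in replicate 1 and 22.3 in replicate 2 with an IDR of 0.706, and those signals are at percentiles 66.5 and 93.8 of all ranked entries.

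**Figure D2:**
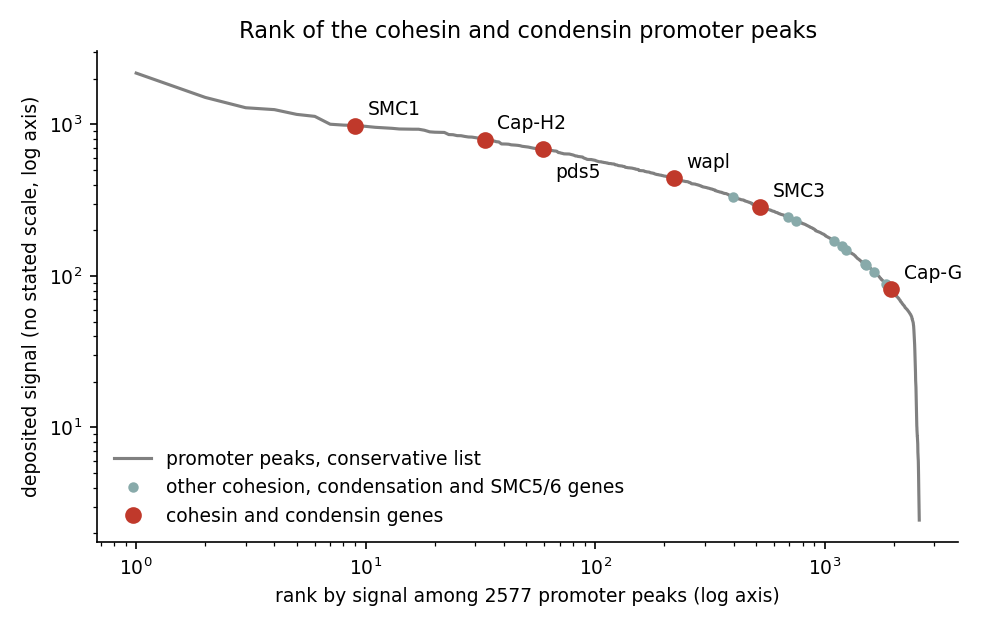
Deposited signal against rank for the 2577 conservative promoter peaks, both axes logarithmic, with the cohesin and condensin genes in red and the other cohesion, condensation and SMC5/6 genes in grey-blue. SMC1, Cap-H2 and pds5 are at ranks 9, 33 and 59, and Cap-G is at rank 1945.

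The single-replicate lists gave nearly the same membership. In replicate 1's own list the same 6 of the 10 genes had a promoter peak, where 19.5% of protein-coding genes had one. In replicate 2's own list 5 had one, all but Cap-G, beside 18.8% of protein-coding genes. In the optimal list 6 had one, beside 23.5%. Counting only the gene nearest to each summit left SMC1, SMC3, wapl and Cap-G, 4 of 10, beside 16.2% of protein-coding genes. In this setting pds5 and Cap-H2 lost their peaks to their neighbours.

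Shared promoters were common among the genes with a peak, as among promoter peaks in general. Of the 6 peaks, 3 were also within 500 bp of a start site of another gene, all 3 in divergent pairs: SMC3 with Ubc7, pds5 with Mppe and Cap-H2 with MED7. The start sites of these pairs lie 238, 278 and 278 bp apart. Among all 2577 promoter peaks 44.7% were in reach of 2 or more genes and 41.5% in reach of start sites on both strands. A peak between divergent start sites cannot be assigned to either gene from these data. The 6 summits lay 43 to 171 bp upstream of the genes' own start sites. All promoter summits had a median position of -34 bp from the nearest start site of any gene, with 73.5% upstream. By that second measure the pds5 summit lay 117 bp upstream of Mppe and the Cap-H2 summit 107 bp upstream of MED7. All 6 summits were in intergenic sequence, but the share of all promoter summits in such sequence was not counted, so this is not shown to be particular to these genes.

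TATCGAT or CGATA was present at most of the 10 promoters, as at most promoter peaks in general. Among the genes with a peak, pds5 was an exception. Motifs were sought on both strands within 100 bp of the summit, or of the start site where there was no peak. Each whole core TATCGATA also counts as 2 overlapping matches of TATCGAT and 2 of CGATA. The core was found at wapl and Cap-H2 among the 6 genes with a peak and at vtd among the others. It was in 29.4% of windows at all promoter peaks and in 6.42% of windows at all protein-coding start sites. TATCGAT was found at 5 of the 6 genes with a peak, all but pds5, beside 50.8% of promoter peaks and 12.7% of start sites. Among the 4 genes without a peak, vtd and Cap-D3 had it. CGATA was found at the same 5 genes, and at vtd, SMC2 and Cap-D3, beside 76.4% of promoter peaks and 37.2% of start sites. With 6 genes, none of these counts is shown to differ from the share of all promoter peaks.

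The number and place of the CGATA matches differed among the genes with a peak. wapl had 5 matches, SMC1 and SMC3 had 4 each, Cap-G had 3 and Cap-H2 had 2, against a median of 2 at promoter peaks, of which 18.2% had 4 or more. The match nearest to the summit was 3 bp away at wapl, 7 bp at SMC1, 15 bp at Cap-G and 30 bp at SMC3, but 77 bp at Cap-H2, against a median of 16 bp at promoter peaks with a match. pds5 had none, although its signal was exceeded by those of only SMC1 and Cap-H2 among the 10 genes. Of the 58 promoter peaks with a higher signal than pds5, 2 had no CGATA in the window, 19 had no TATCGAT and 41 had no whole core. The order of signals among the 6 genes did not follow the number of matches: Cap-H2 and pds5, with the fewest, had the highest signals after SMC1. Promoter peaks in general had higher signals where a match was present. Their median signal was 171.6 at the 1968 peaks with CGATA in the window and 73.7 at the 609 without. The medians were also higher with TATCGAT than without it, and with the whole core than without it. Signal against the number of matches was not tested over all promoter peaks.

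**Figure D3:**
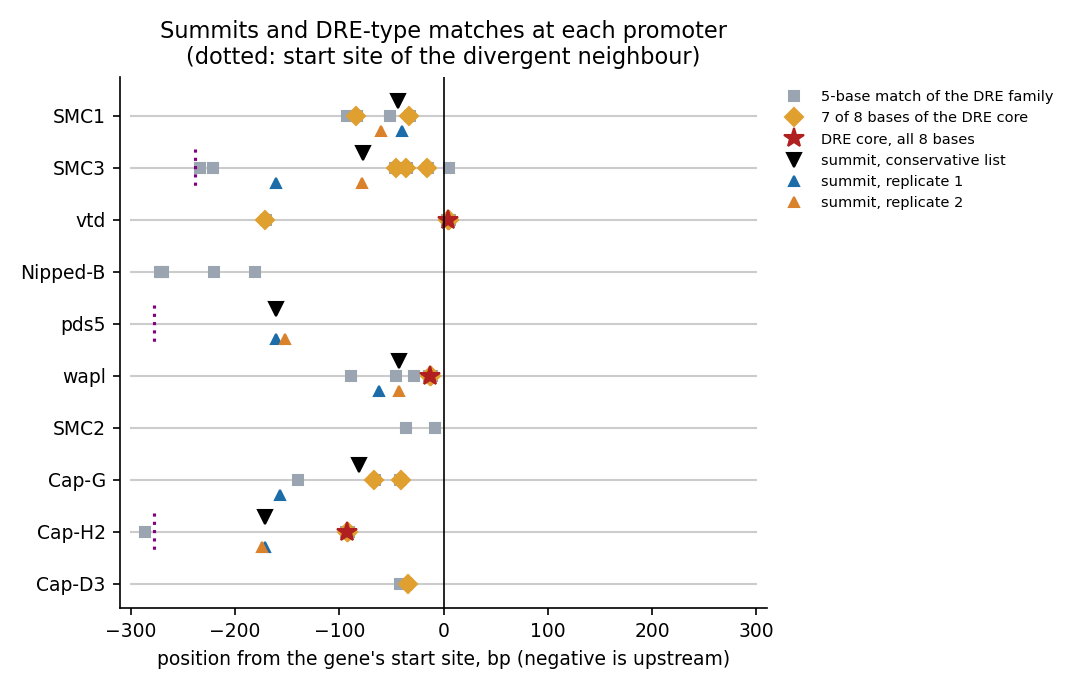
Positions of conservative summits (black), replicate summits (blue and orange), DRE-type matches (squares, diamonds and stars for 5, 7 and all 8 bases) and divergent neighbours' start sites (dotted) relative to each gene's start site in bp, with negative values upstream. The conservative wapl, SMC1 and Cap-G summits lie near matches, and the conservative SMC3 summit lies 30 bp from its nearest match. The Cap-H2 summit lies further from its core, and pds5 has no match in the plotted range.

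vtd had a whole core and no ranked entry. Its core lies next to the start site, as the printed stretch shows. Of the 1185 protein-coding genes with a whole core within 100 bp of a start site, 903 (76.2%) had a promoter peak, and 67 (5.65%), vtd among them, had no ranked entry. Of the 12783 genes without a core, 2249 (17.6%) had a peak. These shares describe the annotation and the peak list together and take no account of how uniquely each promoter maps.

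Other motifs were found at few of the 10 genes. The core-promoter element CATCNCTA was at SMC1 only, 38.5 bp from the summit, and was in 15.6% of promoter peaks and 4.50% of start sites. GGTCACA, the core of a further housekeeping promoter motif, was at wapl and SMC2 (10.5% of promoter peaks, 7.02% of start sites). GAGAG was at Nipped-B, pds5 and wapl (17.5% and 24.9%), and TATAAA at SMC3, vtd, pds5 and Cap-G (25.3% and 26.8%). TCAGT was at pds5 and Cap-H2 (30.1% and 43.3%), and CAGCTG at Cap-D3 (14.4% and 13.5%). The E2F-type sites TTTCCCGC, TTTCGCGC, TTTGCCGC and TTTGGCGC were found once, at SMC2 (4.58% and 4.75%). CAGGTA and AAGGTCACA were at none, beside 4.31% and 0.310% of promoter peaks.

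Among 24 further genes of sister chromatid cohesion, chromosome condensation and the related SMC5/6 complex, 10 had a conservative promoter peak, beside the same 22.6% of protein-coding genes. This list too was drawn up with earlier results of these data known. None of the 24 genes reached the signal of SMC1, Cap-H2, pds5 or wapl. Sse, the separase that cuts cohesin at anaphase, was highest with 334 (percentile 84.7), and its inhibitor pim, the fly securin, had 157 in a peak shared with Cand1. Top2, the topoisomerase that untangles sister chromatids, had 243. Cap-D2, a condensin I subunit, had 230.1 in a peak shared with Bub3, a gene of the spindle checkpoint. That summit was nearer to Bub3 (105 bp) than to Cap-D2 (125 bp). Nse1 of the SMC5/6 complex had 169.6. SA1, the cohesin ring subunit also called stromalin, had 149 in a peak shared with Gas41. Mau2, the partner of Nipped-B, had 120.4 in a peak shared with Spn88Eb. mei-S332, the fly shugoshin that protects centromeric cohesin, had 119 in a peak whose summit was nearer to a start site of Vrp1, 18 bp away, than to its own. The other 2 were Nse4 with 106 and cerv with 89.1, the cerv summit being nearer to CG7872 (18 bp) than to cerv (52 bp). In the single-replicate lists Mau2 had no peak in replicate 1, Nse4 had none in replicate 2 and cerv had none in either.

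Set out by complex, the groups hold too few genes for a comparison among them, and 22.6% of all protein-coding genes had a peak. The cohesin ring had peaks at SMC1, SMC3 and SA1 and none at vtd, and the loader at Mau2 and not at Nipped-B. Condensin I had peaks at Cap-D2 and Cap-G and none at barr, its kleisin, and neither condensin ATPase gene, SMC2 or glu (the fly SMC4), had one. SMC5/6 had peaks at 3 of 7 genes, and neither ATPase gene, SMC5 or SMC6, was among them. The meiotic cohesion genes solo, sunn, ord and c(2)M had none, nor had the acetyltransferase genes eco and san. dmt, a cohesin-protecting gene, was in none of the 4 peak lists but had a reproducible ranked entry 65 bp upstream of its start site, with 45.8 in replicate 1, 77.8 in replicate 2 and an IDR of 0.000695. It was 1 of 105 ranked entries that were past the IDR limit of the conservative list and not in that list. thr, the partner of separase, had a peak in the optimal list (74.4) and in replicate 1's own list (54.2), and san only in replicate 1's own list (40.1).

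**Figure D4:**
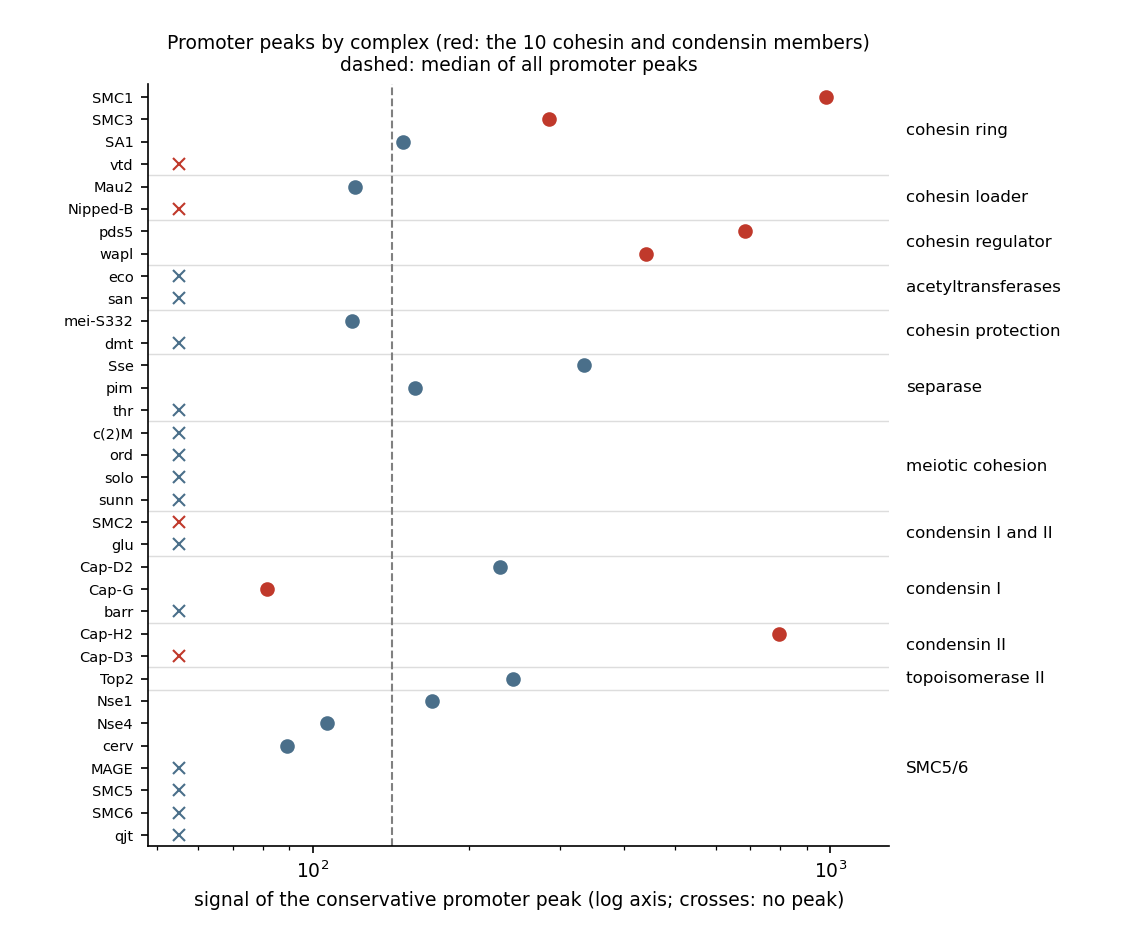
Signal of the conservative promoter peak (log axis) for the 10 cohesin and condensin genes (red) and the 24 further genes (blue), ordered by complex, with crosses for genes without a peak and a dashed line at the median of all promoter peaks, 142. The red points at SMC1, Cap-H2, pds5 and wapl are the 4 highest.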

How the data were processed

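Anti-GFP ChIP-seq of CG8478-eGFP embryos was deposited as peak lists in dm6 coordinates, made from the alignments and 1 control alignment, per the file headers. The aligner and peak caller are not stated in those headers or in the labels. The authors deposited a signal value, an IDR-derived score and a −log10 q-value for each peak. In the ranked lists each candidate also has a deposited −log10 IDR and the signals of both compared inputs. Of the distinct input 1 peaks of the between-replicate comparison, 53.9% were found in replicate 1's ranked list and none in replicate 2's. Of the input 2 peaks, 73.3% were found in replicate 2's ranked list and none in replicate 1's. Naming the inputs as replicate 1 and replicate 2 rests on these partial matches. The depth is unknown, as no read counts were used. Peaks were called per replicate and on both together, per the file headers.

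Intervals repeated in a peak list were merged to the entry of highest signal, and only the 7 main arms were used. The same merging was done for the ranked entries counted past the IDR limit. Ranked entries quoted at a gene's start site were merged only where both input signals were the same, and were ordered by IDR. Start sites came from Ensembl release 115, without transposable elements, and bases from RefSeq Release 6, whose chromosome lengths hold all peak ends. The percentile of a signal is its place among promoter peaks of that list. SA was read as SA1, and all 34 symbols matched 1 gene each. No test was made, since there is 1 group of 2 samples. The members and lists were chosen with earlier results of these data known. Named were all 10 members, genes sharing their promoters, and further pathway genes with a peak, at most 8 by falling signal. Nse4, cerv and the further genes without a peak were added after their values were seen. Gene assignment and motif search were checked on planted peaks and motifs. The conservative list was not the ranked list at an IDR limit alone: a further file with no stated content went into it, per the file headers. Alternatives were other windows, lists, thresholds and assignment rules. Python 3.11.15, NumPy 2.4.6, pandas 2.3.3 and matplotlib 3.10.9 were used.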

Additional observations from a re-analysis of the deposited data

How the results depend on the processing

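The count of cohesin and condensin genes with a promoter peak was 6 of 10 and ran from 4 to 6 over the 9 alternatives, the lowest when only the closest gene was counted. It was 5 to 6 when 1 replicate was left out, with 8 to 10 of the 24 further genes and 2619 to 2729 protein-coding genes (18.8% to 19.5%). In the upper 50% of peaks by signal 5 of the 10 genes kept a peak, with 6 of the further genes and 1957 protein-coding genes. That list leaves out the weaker peaks by its construction. An alternative chosen after seeing the data took every ranked entry past the IDR limit of the conservative list. It gave 6 of the 10 genes, 11 of the further genes (dmt added) and 3221 protein-coding genes (23.1%). The median percentile of the members' signals ran from 90.8 to 97.2 when 1 replicate was left out, the latter over 5 genes, since Cap-G had no peak in replicate 2's list. SMC3 was at percentile 64.3 there. The median was not taken with each peak given to the closest gene only. A whole DRE core was found at 2 of the 10 genes within 50 bp of the summit or start site, which leaves out the core of Cap-H2, and at 3 within 200 bp. The count of shared promoters was 3 in both of its alternatives. No paired analysis was possible because there is 1 group. The depth is unknown, so a gene without a peak is not shown to be unbound.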
